A study of Mus musculus with 6 samples.

Results

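The genes described here are the neurotrophins that were measured in mouse brain, their receptors and the proteases that process them. They are Bdnf and Ntf3 (ligands), Ntrk2, Ntrk3, Ngfr and Sort1 (receptors) and Furin and Pcsk1 (proprotein convertases). The 8 genes were selected on their symbols among the 52390 genes listed in the deposited count table. All 8 were among the 21844 genes with enough counts to be tested. The set was proposed with the contrast of these same libraries in view, so its fold changes between groups are given as a description, without a test.

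Neurotrophins are secreted as precursors that furin in the Golgi or prohormone convertases in secretory granules cut at a paired-basic site. The mature forms bind Trk receptor tyrosine kinases, whereas the uncut proforms bind the p75 receptor (encoded by Ngfr) together with sortilin (encoded by Sort1). In the cortex, BDNF is made mainly by excitatory neurons and acts through TrkB (encoded by Ntrk2), which neurons carry with a kinase domain and astrocytes carry in a truncated form.

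The study asked what the long non-coding RNA AP1AR-DT does in the brain, and compared RNA-seq libraries of bulk brain tissue from 3 control mice and 3 AP1AR-DT_OE mice. Both groups were wild-type male C57BL/6 mice that received an adeno-associated virus (AAV) in the medial prefrontal cortex at 8 weeks of age. In controls the vector was empty. In AP1AR-DT_OE mice the neuronal promoter of human synapsin I drove AP1AR-DT, and a CMV promoter drove EGFP. AP1AR-DT is a human transcript with no row in the mouse table, so its overexpression was not checked here. The labels give the tissue as brain, the study's methods as cortex and its results as the medial prefrontal cortex. The AP1AR-DT_OE columns are numbered differently from the mice, and the letters A, B and C only name these columns and pair with no control.

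The cleavage site that makes each ligand from its precursor is shown first, since the ligands and the proteases were counted side by side. The stretches below are 72 bases of coding sequence, read 5′ to 3′ from GENCODE transcripts on GRCm38. The capitals mark the 4 codons of the only arginine, any residue, lysine or arginine, arginine run that was found in the longest coding sequence of each gene. Bdnf lies at chr2:109723751-109723822 on the plus strand, Ntf3 at chr6:126102056-126102127 on the minus strand and Sort1, whose own propeptide is cut, at chr3:108284324-108284395 on the plus strand.
Bdnf: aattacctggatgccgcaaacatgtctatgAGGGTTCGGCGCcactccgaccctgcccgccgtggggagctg
Ntf3: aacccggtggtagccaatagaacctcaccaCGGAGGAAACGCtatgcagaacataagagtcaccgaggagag
Sort1: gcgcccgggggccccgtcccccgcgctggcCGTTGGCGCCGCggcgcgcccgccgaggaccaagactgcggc

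The libraries held 42061721 to 49957663 counts in control mice and 51374941 to 54668294 in AP1AR-DT_OE mice. Mitochondrial genes took 7.20 to 9.86% of the counts in controls and 5.75 to 6.80% in AP1AR-DT_OE mice. Markers of brain regions set controls 2 and 3 apart from the other libraries. Summed hypothalamic markers reached 608.6 normalized CPM (read counts relative to the effective size of each library) in control 2 and 6.61 to 76.4 in the other 5 libraries. Summed choroid plexus markers reached 3904 normalized CPM in control 3 and 46.8 to 66.2 elsewhere. Slc17a7, the vesicular glutamate transporter of cortical excitatory neurons, was 28.2, 3.86 and 233.1 normalized CPM in controls 1 to 3, and 230.6, 463.3 and 87.2 in AP1AR-DT_OE libraries A to C. It stood below Slc32a1, the vesicular GABA transporter, in every library, where Slc32a1 was 309.2 to 788.7 normalized CPM. The sums in controls and in AP1AR-DT_OE mice were 1078 to 2157 and 1889 to 2223 normalized CPM for GABA neurons, 329.8 to 1272 and 794.4 to 2232 for striatal neurons, and 204.0 to 362.2 and 259.4 to 434.0 for hippocampal neurons. They were 216.8 to 269.1 and 225.1 to 316.6 for microglia, and 58.2 to 68.8 and 72.4 to 103.3 for endothelium. The hippocampal sum was led by Wfs1, which was highest in library A, as was Spink8. Prox1, C1ql2 and Neurod1 were instead highest in control 3, with 93.3, 62.1 and 11.2 normalized CPM. In the other libraries they were 11.3 to 20.4, 6.27 to 19.2 and 0.78 to 4.77. In bulk tissue, fewer cells of a type and less RNA per cell cannot be told apart.

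Across all genes, edgeR's quasi-likelihood test called 2675 of 21844 genes differentially expressed (DEGs, P below 0.05 and absolute Log2FC above 0.32), which is 12.2% of them. DEGs were 5.1% of genes upwards and 7.15% downwards, and 6 genes (0.0275%) had a Benjamini-Hochberg adjusted P below 0.05. Among the 8 neurotrophin genes, Ngfr and Furin passed both thresholds, both with higher counts in AP1AR-DT_OE mice, and none had an adjusted P below 0.05. Control and AP1AR-DT_OE values of normalized CPM were fully apart for 3 of the 8 genes (Ntrk2, Ngfr and Furin), beside groups that do not overlap for 22.4% of all genes tested. Log2FC was above 0 for 4 genes and below 0 for 4, with a median of 0.17 beside -0.014 for all genes. Since the set was proposed from this contrast, nothing is read from these counts.

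**Figure D1:**
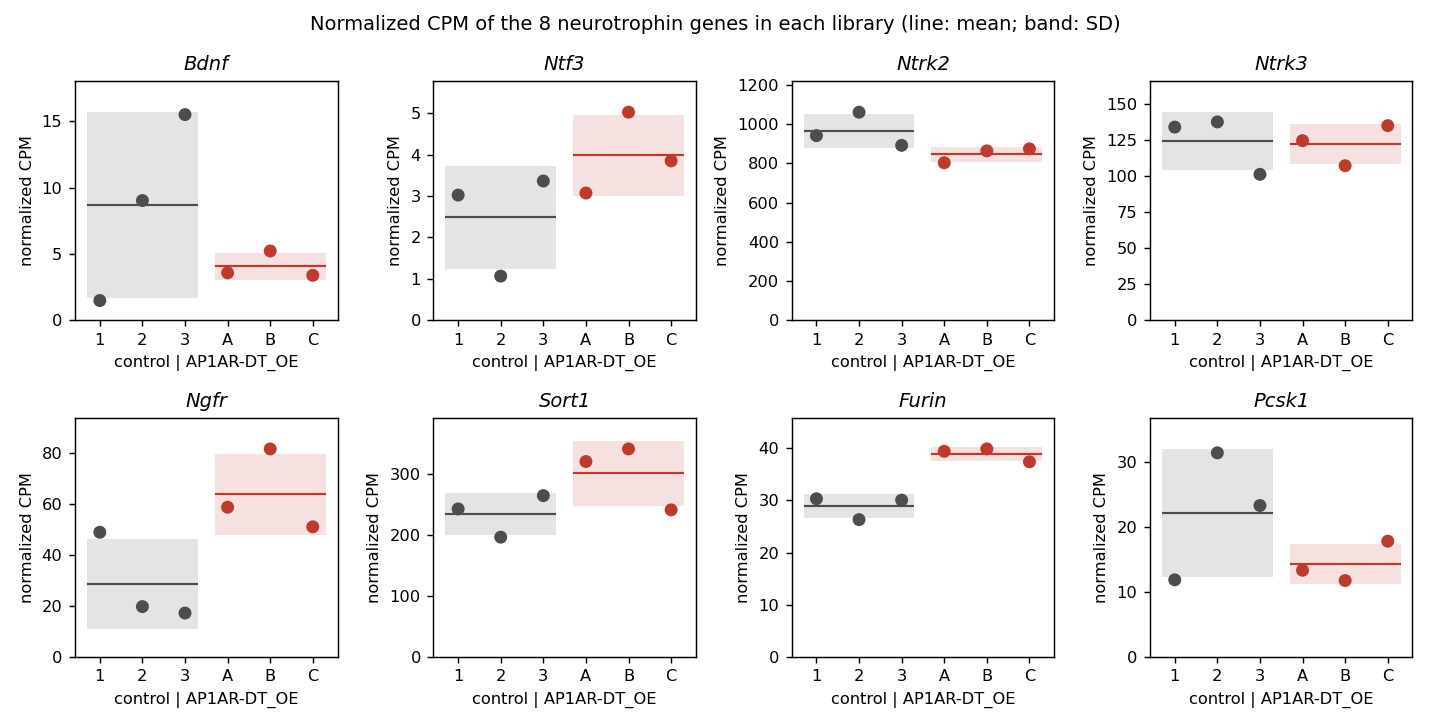
Normalized CPM (y axis, from 0) of each of the 8 genes in the 3 control libraries (grey, 1 to 3) and the 3 AP1AR-DT_OE libraries (red, A to C), with the group mean as a line and the SD as a band. Furin separated the groups with a narrow spread, whereas Bdnf spanned 1.48 to 15.5 normalized CPM within the controls alone.

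Bdnf encodes brain-derived neurotrophic factor, the main activity-dependent neurotrophin of the adult cortex. The gene (ENSMUSG00000048482) lies at chr2:109674700-109727007 on the plus strand of GRCm38 and has 11 annotated transcripts from alternative promoters, which a gene-level count pools. Normalized CPM were 1.48, 9.02 and 15.5 in controls 1 to 3, and 3.56, 5.21 and 3.37 in AP1AR-DT_OE libraries A to C. The control libraries gave both the lowest and the highest value, so all 3 AP1AR-DT_OE values fell inside the control range. The means were 8.66 ± 7.02 and 4.05 ± 1.01 (SD, n = 3 each), a Log2FC of -1.10 with an SE of 0.70. The highest control was 10.5 times the lowest, against 1.55 times in AP1AR-DT_OE mice. The Log2FC was -0.36 without control 3 and -1.60 without control 1, so a single control decided its size. Control 3, the highest library for Bdnf, was also the highest for oligodendrocyte markers (10640 normalized CPM in sum, against 5048 to 6430 elsewhere), thalamic markers (725.4 against 127.5 to 225.6) and fibroblast markers (256.4 against 21.7 to 80.9). Igf2 alone gave 232.3 of the fibroblast sum in control 3. Dcn and Lum were also highest in control 3, whereas Col1a1, Col1a2 and Slc6a13 were highest in library B. The part of these markers in the Bdnf values was not tested. The kit did not mark strand, and the antisense gene Gm45346 covers 14.4% of the Bdnf exons, with 0 counts in every library.

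Ntf3 encodes neurotrophin-3, the preferred ligand of TrkC. The gene (ENSMUSG00000049107) lies at chr6:126101412-126166910 on the minus strand. Normalized CPM were 3.02, 1.06 and 3.36 in controls 1 to 3, and 3.07, 5.03 and 3.85 in libraries A to C. Control 2 was the lowest library, and the other two controls lay next to AP1AR-DT_OE library A. The means were 2.48 ± 1.24 in controls and 3.98 ± 0.98 in AP1AR-DT_OE mice, a Log2FC of 0.68 with an SE of 0.43. Leaving out control 2 took the Log2FC to 0.33, and leaving out control 3 took it to 0.98. These are low counts, of 53 to 271 per library. Control 2 also had the lowest sum of cortical excitatory neuron markers (1098 normalized CPM against 1633 to 2835 elsewhere), and the part of that difference was not tested.

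Bdnf and Ntf3 had Log2FC of opposite sign. Per length, the ratio of Bdnf to Ntf3 was 0.135, 2.34 and 1.27 in controls 1 to 3. It was 0.32, 0.286 and 0.242 in AP1AR-DT_OE libraries A to C. Control 1 lay below all of the AP1AR-DT_OE libraries and the other two controls lay above them, so the ratio did not separate the groups.

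Ntrk2 encodes TrkB, the receptor of BDNF. The gene (ENSMUSG00000055254) lies at chr13:58806569-59133970 on the plus strand and has 10 transcripts, so its counts pool the kinase-bearing and the truncated receptor. Normalized CPM were 941.5, 1061 and 891.9 in controls 1 to 3, and 802.9, 863.6 and 874.1 in libraries A to C. All AP1AR-DT_OE libraries lay below all controls, with a gap of control 3 over library C that was small beside the spread of the controls. The means were 965 ± 86.8 and 847 ± 38.4, a Log2FC of -0.19 with an SE of 0.10, which is short of the fold threshold. The fitted variation of Ntrk2 between replicates exceeded that of 2.57% of genes tested. Its Log2FC stayed between -0.23 and -0.11 when any 1 library was left out. It was -0.059 (SE 0.098) after correction for transcript length. Astrocyte markers, of which Slc1a2 was the most abundant, summed to 4926 to 6024 normalized CPM in controls and 4975 to 5219 in AP1AR-DT_OE mice. Singly, Aqp4 (124.5 to 238.1 against 102.3 to 113.3) and Sox9 (94.0 to 110.8 against 68.1 to 85.8) were lower in all AP1AR-DT_OE libraries. Gfap, Slc1a2, Slc1a3, Aldh1l1, Gja1 and Aldoc overlapped between the groups. The part of these markers in the Ntrk2 values was not tested.

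Ntrk3 encodes TrkC, the receptor of neurotrophin-3. The gene (ENSMUSG00000059146) lies at chr7:78175959-78738012 on the minus strand. Normalized CPM were 134.0, 137.6 and 101.2 in controls 1 to 3, and 124.6, 107.2 and 135.0 in libraries A to C. The groups overlapped throughout, with means of 124 ± 20.04 and 122 ± 14.0. The Log2FC of -0.023 had an SE of 0.15, and its sign held in 8 of 13 alternative settings, so no direction is given.

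Ngfr encodes p75NTR, which binds all proneurotrophins and in the adult forebrain is best known from basal forebrain cholinergic neurons. The gene (ENSMUSG00000000120) lies at chr11:95568818-95587735 on the minus strand and has 1 annotated transcript. Normalized CPM were 48.9, 19.7 and 17.2 in controls 1 to 3, and 58.7, 81.6 and 51.0 in libraries A to C. All AP1AR-DT_OE libraries were above all controls, but control 1 lay just under library C and far above the other two controls. The means were 28.6 ± 17.6 and 63.8 ± 15.9, a Log2FC of 1.16 with an SE of 0.41. The Log2FC was 1.79 without control 1 and 0.91 without control 3.

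The sum of 6 markers of basal forebrain cholinergic neurons, of which Slc5a7 (the choline transporter) was the most abundant, was 161.6, 70.7 and 71.4 normalized CPM in controls 1 to 3. It was 156.2, 174.3 and 136.1 in libraries A to C. None of the 6 was at 0 in any library, and Chat, the acetylcholine-synthesizing enzyme, ranged from 5.96 to 24.8 normalized CPM. Control 1 was thus among the high libraries for these markers and for Ngfr, and controls 2 and 3 were the low ones for both. The part of the cholinergic markers in the Ngfr difference was not tested.

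Sort1 encodes sortilin, the co-receptor of p75NTR that also sorts BDNF to the regulated secretory pathway. The gene (ENSMUSG00000068747) lies at chr3:108284082-108361511 on the plus strand. Normalized CPM were 242.8, 196.5 and 264.7 in controls 1 to 3, and 320.7, 341.4 and 241.3 in libraries A to C. Library C fell within the control range, whereas A and B lay above it. The means were 235 ± 34.8 and 301 ± 52.9, a Log2FC of 0.36 with an SE of 0.17. The Log2FC was 0.51 without library C and 0.26 without control 2. Cortical excitatory neuron markers, of which Camk2a made up most of the sum, ordered the libraries in a similar way, with 1913, 1098 and 1941 normalized CPM in controls and 2333, 2835 and 1633 in AP1AR-DT_OE libraries. Their part in the Sort1 values was not tested. The antisense gene Gm12523 covers 4.47% of the Sort1 exons and had 0 to 12 counts per library.

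Furin encodes the Golgi convertase that cuts proneurotrophins, among many other precursors. The gene (ENSMUSG00000030530) lies at chr7:80388585-80405436 on the minus strand. Normalized CPM were 30.3, 26.3 and 30.1 in controls 1 to 3, and 39.4, 39.9 and 37.4 in libraries A to C. The groups did not overlap, and the gap between them exceeded the range within either group. The means were 28.9 ± 2.24 and 38.9 ± 1.32, a Log2FC of 0.43 with an SE of 0.10. The Log2FC stayed between 0.37 and 0.47 when any 1 library was left out. It was 0.27 after correction for GC content, below the fold threshold. The sum of endothelial markers was also fully apart between the groups, at 58.2 to 68.8 normalized CPM in controls and 72.4 to 103.3 in AP1AR-DT_OE mice. Singly, only Cldn5 was apart (17.2 to 24.1 against 27.0 to 42.1). Flt1, Pecam1 and Tek overlapped, and Kdr was highest in control 3. The part of these markers in the Furin values was not tested. The antisense gene Gm44851 covers 1.29% of the Furin exons and had 4 to 21 counts per library.

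Pcsk1 encodes prohormone convertase 1, the protease of the regulated secretory pathway. The gene (ENSMUSG00000021587) lies at chr13:75089826-75134861 on the plus strand. Normalized CPM were 11.9, 31.5 and 23.3 in controls 1 to 3, and 13.4, 11.8 and 17.8 in libraries A to C. Control 1 lay among the AP1AR-DT_OE libraries, and controls 2 and 3 lay above them. The means were 22.2 ± 9.85 and 14.3 ± 3.15, a Log2FC of -0.64 with an SE of 0.34. The Log2FC was -0.29 without control 2 and -0.94 without control 1. The sum of hypothalamic markers was highest in the same 2 controls, at 6.61, 608.6 and 76.4 normalized CPM in controls 1 to 3. It was 12.1, 11.4 and 29.0 in libraries A to C. Oxt (280.9), Avp (184.5) and Trh (120.8) were the largest of these markers in control 2. Pmch (19.2), Hcrt (11.3) and Agrp (0.58) were instead highest in control 3. Pomc (2.38) and Trh (8.57) in control 3, and Agrp (0.36) in control 2, lay below at least 1 AP1AR-DT_OE library. Of those 8 markers, Hcrt, Oxt and Sim1 were at 0 in at least 1 library. The part of the hypothalamic markers in the Pcsk1 values was not tested.

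**Figure D2:**
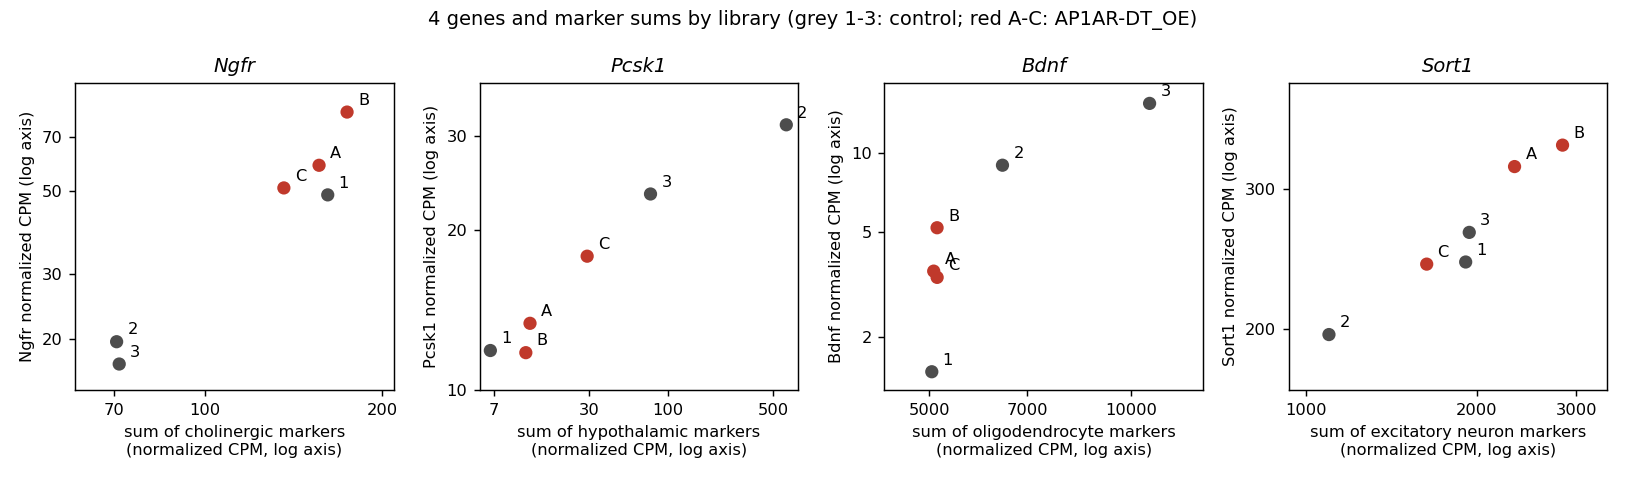
Normalized CPM of Ngfr, Pcsk1, Bdnf and Sort1 (y axes, log scale) against the summed normalized CPM of cholinergic, hypothalamic, oligodendrocyte and cortical excitatory neuron markers (x axes, log scale), with 1 point per library (grey 1 to 3 for control, red A to C for AP1AR-DT_OE). The highest Pcsk1 value, 31.5 in control 2, stood at the highest hypothalamic sum, and the highest Bdnf value, 15.5 in control 3, at the highest oligodendrocyte sum.

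The 2 convertases differed in direction. Per length, the ratio of Furin to Pcsk1 was 1.56, 0.511 and 0.787 in controls 1 to 3. It was 1.80, 2.07 and 1.28 in libraries A to C. Control 1 lay within the AP1AR-DT_OE range, as it did for Pcsk1 alone.

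The receptors of the proforms and of the mature ligand were also set side by side. Per length, the ratio of Ngfr to Ntrk2 was 0.291, 0.104 and 0.108 in controls 1 to 3. It was 0.409, 0.529 and 0.327 in libraries A to C, so all AP1AR-DT_OE libraries were above all controls. That follows from the normalized CPM, where Ngfr lay above and Ntrk2 below all controls, so the ratio adds no further separation. The ratio of Sort1 to its partner Ngfr was 2.26, 4.54 and 7.03 in controls and 2.49, 1.91 and 2.15 in AP1AR-DT_OE libraries, and here control 1 fell within the AP1AR-DT_OE range.

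Levels per length, as TPM (each gene's share of all counts per base of exon, scaled as CPM is) computed from the counts over the length of all exons, were ordered by the control means. In control mice Ntrk2 had 107 ± 14.6 TPM and Sort1 66.2 ± 8.86. Ngfr followed with 17.4 ± 9.58 TPM, Ntrk3 with 8.82 ± 1.51 and Pcsk1 with 8.65 ± 4.23. Furin had 6.73 ± 0.34 TPM, Ntf3 3.06 ± 1.49 and Bdnf 3.05 ± 2.48. The ligands were thus the least abundant of the set in controls. Among neighbours in this order, Ntrk3 and Pcsk1, Pcsk1 and Furin, and Ntf3 and Bdnf overlapped within the controls. In AP1AR-DT_OE mice the levels were 96.1 ± 6.46 TPM for Ntrk2, 86.8 ± 13.1 for Sort1 and 40.4 ± 9.34 for Ngfr. They were 9.28 ± 0.077 for Furin, 8.89 ± 1.23 for Ntrk3 and 5.61 ± 1.40 for Pcsk1. Ntf3 had 5.08 ± 1.23 and Bdnf 1.42 ± 0.33 TPM. The mean of Furin stood above that of Ntrk3 there, the values of Ntrk2 and Sort1 overlapped and those of Ntf3 and Bdnf did not. With the longest transcript as length, Ntrk2 had 213 TPM, Ntrk3 12.1 and Furin 9.68 in controls, since all exons together are much longer than 1 transcript of these genes. With that length the control means of Furin (9.68) and Pcsk1 (8.63), and of Bdnf (3.99) and Ntf3 (3.18), changed places in the order.

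Over all genes tested, Log2FC moved with base composition, from a median of -0.30 in the decile of genes with the lowest GC content to 0.22 in the decile with the highest. Bdnf (40.9% GC) and Pcsk1 (40.6%) were in the lowest decile, whereas Ngfr (58.6%) was in the highest and Furin (55.9%) in the next, which had a median of 0.16. After a correction of each library for GC content the Log2FC was -0.82 for Bdnf, -0.38 for Pcsk1, 0.93 for Ngfr and 0.27 for Furin. Ntf3 (0.69), Ntrk2 (-0.17) and Sort1 (0.30) moved little, and Ntrk3 took the value 0.15. After this correction 0 of the 8 genes passed both thresholds of edgeR's test, against 2 before it and 4 by DESeq2 without it. Over all genes edgeR called 1566 of 21844 after the correction and 2675 before it, and DESeq2 called 3093 of 31872.

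**Figure D3:**
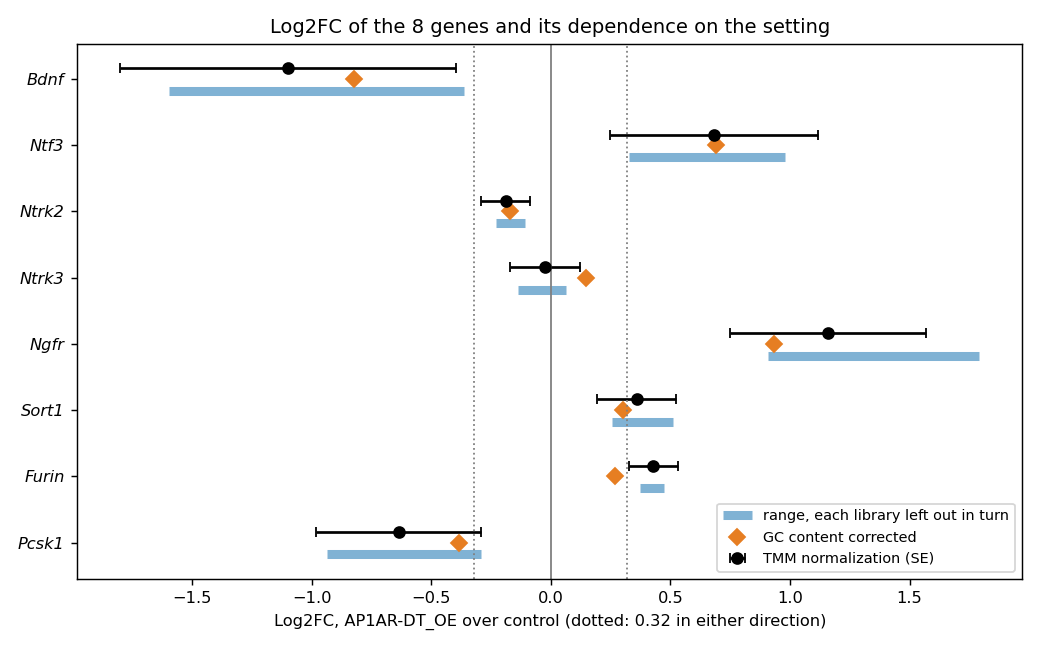
Log2FC (x axis) of the 8 genes with TMM normalization (black, error bar SE), after correction for GC content (orange) and as the range when each of the 6 libraries was left out in turn (blue), with the 0.32 threshold dotted. Furin kept a narrow range of 0.37 to 0.47 but lay at 0.27 after GC correction, and Bdnf ranged from -1.60 to -0.36.

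Promoters were read for motifs of the cAMP response element (CRE), bound by CREB, since Bdnf is a known CREB target and CREB genes were among those tested. RefSeq promoter windows (GRCm38.p6, 250 bases before to 50 after each start) matched 6 of the 8 genes, with 14 windows, of which 7 belong to Bdnf. Ntrk3 and Sort1 were not matched. The full CRE, TGACGTCA, was found in 1 of the 14 windows, that of Pcsk1, and in 1.79% of all 32851 windows. The shorter core TGACG, on either strand and counted also within a full site, was found in 3 windows (1 of Bdnf, 1 of Furin and that of Pcsk1) and in 20.8% of all windows. These matches describe letters in the window and no binding. The 130 bases up to the start are shown for the Bdnf window with a core (chr2:109692306-109692435, plus strand) and for Pcsk1 (chr13:75089727-75089856, plus strand), with CRE letters in capitals.
Bdnf: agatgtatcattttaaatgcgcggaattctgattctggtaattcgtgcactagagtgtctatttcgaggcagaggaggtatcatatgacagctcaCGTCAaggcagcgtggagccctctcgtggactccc
Pcsk1: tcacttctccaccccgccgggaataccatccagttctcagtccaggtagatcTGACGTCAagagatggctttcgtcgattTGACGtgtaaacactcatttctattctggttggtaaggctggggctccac

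Regulators of Bdnf transcription were tested as a list of 14 genes, of which 3 rose and 1 fell past both thresholds of edgeR's quasi-likelihood test, and none at an adjusted P below 0.05. These 4 genes are 28.6% of the list, beside 12.2% of all genes tested. Creb1, which encodes the CRE-binding factor CREB, fell from 39.8 ± 3.00 to 27.6 ± 4.58 normalized CPM (Log2FC -0.53, SE 0.15, adjusted P = 0.295). Crtc1, a CREB coactivator, rose from 198 ± 21.8 to 266 ± 32.2 (Log2FC 0.42, SE 0.13, adjusted P = 0.295). Usf1, an E-box factor that acts at Bdnf promoters, rose by a Log2FC of 0.39 (SE 0.097), and Mef2d, an activity-regulated factor, by 0.33 (SE 0.11), each with an adjusted P of 0.295. All 4 had groups that did not overlap, as had 22.4% of all genes tested. After GC correction none of the 4 passed both thresholds, with Log2FC of -0.24 for Creb1, 0.25 for Crtc1, 0.22 for Usf1 and 0.19 for Mef2d. Npas4, an activity-induced activator of Bdnf, had a Log2FC of 0.67 with an SE of 0.43 and overlapping groups, and Rest, a repressor, one of -0.19 with an SE of 0.16.

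Of the other ligands, Ntf5, which encodes neurotrophin-4, had too few counts to be tested. The sortilin relatives did not pass edgeR's test. Sorl1, which sorts TrkB and amyloid precursor, was 169.3, 145.0 and 146.9 normalized CPM in controls and 167.4, 172.0 and 175.3 in AP1AR-DT_OE libraries, with a Log2FC of 0.16 (SE 0.091). Sorcs1 had a Log2FC of -0.34 (SE 0.28), Sorcs2 of 0.14 (SE 0.093) and Sorcs3 of 0.052 (SE 0.21), and the groups overlapped for each of the 4.

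Of 15 other genes that cut, sort or inhibit the cutting of proneurotrophins, 12 were tested and 1 passed. Pcsk7, a convertase related to furin, was 14.7, 14.4 and 12.8 normalized CPM in controls and 19.8, 17.3 and 17.3 in AP1AR-DT_OE libraries, and rose by a Log2FC of 0.38 (SE 0.12, adjusted P = 0.295). After GC correction its Log2FC was 0.23. Pcsk2, the partner convertase of Pcsk1 in granules, had -0.13 (SE 0.29), and Cpe, which encodes a carboxypeptidase that trims and sorts BDNF precursors, had -0.020 (SE 0.13). Plg, Mmp3 and Mmp7, which encode extracellular proteases, had 0 counts in every library.

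Of 46 genes of Trk signalling, 4 rose, 3 fell and the other 39 did not pass, so that 15.2% were called beside 12.2% of all genes tested. In the PI3K-Akt arm, Akt1 (Log2FC 0.36, SE 0.10), Akt2 (0.41, SE 0.16) and Pik3r2, a regulatory subunit of PI3-kinase (0.41, SE 0.16), rose, whereas Pik3ca, a catalytic subunit, fell (-0.34, SE 0.12). Of the small GTPases Hras rose (0.47, SE 0.16). The adaptors Gab1 (-0.35, SE 0.13) and Shc3 (-0.45, SE 0.18) fell. The adjusted P of these 7 genes by edgeR was 0.295 (Akt1) to 0.316 (Shc3). Akt1, Akt2, Gab1 and Pik3ca had groups that did not overlap, as had 22.4% of all genes tested. For Akt2 control 1 (52.70 normalized CPM) nearly met library C (52.75). After GC correction Gab1 (-0.43) and Shc3 (-0.60) still passed both thresholds and the other 5 did not.

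Of 22 genes of p75NTR signalling, none passed both thresholds by edgeR or DESeq2. Aph1a, a subunit of the gamma-secretase that cuts p75NTR within the membrane, was the only 1 with an unadjusted P below 0.05, with a Log2FC of 0.24 (SE 0.094, adjusted P = 0.31). Of 12 genes known to respond to BDNF or to neuronal activity, none passed both thresholds or an unadjusted P below 0.05 by edgeR. DESeq2 called 3 of the 12, beside 3093 of 31872 among all genes it tested. The Log2FC of the 12 genes was above 0 for 9, with a median of 0.31. Vgf, a neurotrophin-induced secretory protein, was 431.5, 478.9 and 284.0 normalized CPM in controls and 504.6, 560.8 and 544.1 in AP1AR-DT_OE libraries, without overlap (Log2FC 0.43, SE 0.19, adjusted P = 0.339). Arc and Fos, which are induced by activity, were highest in control 1, at 150.9 and 44.4 normalized CPM.

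Across these lists, 12 of 112 genes tested were DEGs (8 up, 4 down), or 10.7%, beside 12.2% of all genes. The count by edgeR was 17 at an unadjusted P below 0.05 and 0 after adjustment, and DESeq2 called 17 past both thresholds and 0 after adjustment. Over all genes DESeq2 called 3093 of 31872, and 308 had an adjusted P below 0.05. The median Log2FC of the lists was 0.054. Without library A the count was 4, without library B 5, without library C 21 and without control 1 it was 24, and after GC correction it was 5.

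**Figure D4:**
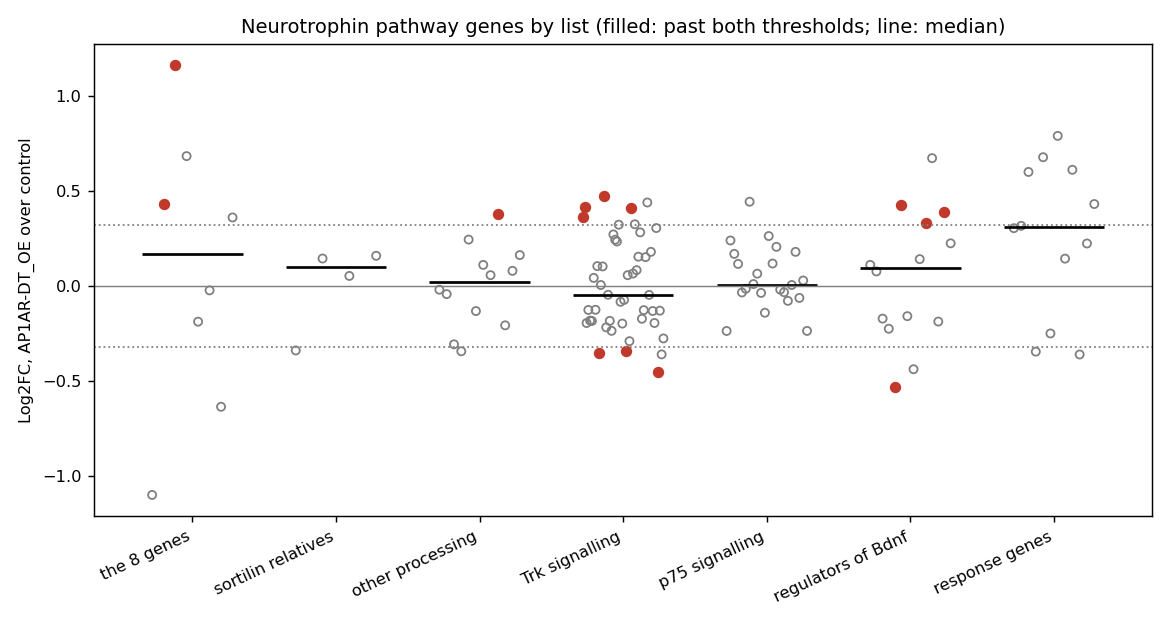
Log2FC (y axis) of each tested gene in the neurotrophin set and in 6 pathway lists (x axis), with genes past P below 0.05 and an absolute Log2FC above 0.32 filled in red, the others open, the list median as a black line and the 0.32 threshold dotted. The response genes had the highest median, 0.31, with 0 genes past both thresholds.

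The genes whose levels were most like each member over the 6 libraries were found by Pearson's r of log2 (normalized CPM + 0.5) among about 14200 genes with a mean log2 CPM above 2. With 6 libraries that share group and region differences, such values describe a profile only. Bdnf was most like Mreg (r = 0.998) and Gm8775 (0.988), and Ntf3 like Auh (0.988) and Ncdn (0.985). Ntrk2 was most like Chmp2b (0.988) and Pdk1 (0.985), and Ntrk3 like Gm50364 (0.990) and Bbs4 (0.987). Gm50364 was at 0 in control 3 and library B, where the added 0.5 sets its value. Ngfr was most like Gm8843 and Ptges2 (0.996 each), and Sort1 like Slc8a2 and Rara (0.998 each). Furin was most like Coro6 (0.996) and Mrps36-ps1 (0.995), and Pcsk1 like Elmod2 (0.997) and 4930430F08Rik (0.996). Mreg was 2.75, 6.33 and 8.81 normalized CPM in controls and 3.96, 4.99 and 4.08 in AP1AR-DT_OE libraries, with control 1 lowest and control 3 highest as for Bdnf.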

How the data were processed

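Bulk RNA-seq libraries of 3 control and 3 AP1AR-DT_OE mice were analysed from 1 table of raw gene counts deposited by the authors, and the authors' own DESeq2 comparison columns in it (fold changes and P values) were not used. The study's methods give Bowtie2 alignment to GRCm38 with default settings, which does not split reads over introns, and counts from StringTie on a GENCODE annotation. The submitters' processing notes instead name mm9, TopHat2 2.0.4, HTSeq, Cuffdiff and edgeR 2.6.12. Which of the 2 accounts made the counts could not be settled, and gene positions are therefore those of GENCODE vM21 on GRCm38, in which 52133 of 52390 identifiers were found. The library kit did not mark strand.

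The 8 genes, the pathway lists and the marker lists of 13 cell types and regions were chosen with earlier results of these data known. Ngfr, Pcsk1, Bdnf, Sort1, Furin and Ntf3 were each set beside the marker list of the 13 with the highest Pearson's r. Their likeness to these lists is thus the best of 13 over 6 libraries, and no test of it is given. Counts were filtered with filterByExpr, normalized by TMM and tested with edgeR 4.0.16 (R 4.3.3, quasi-likelihood F-test, 3 against 3 mice, no covariates, all genes in 1 fit), with Benjamini-Hochberg adjustment over 21844 genes. Each P value sets the difference between groups against the spread between these mice, which edgeR moderates with that of all genes. DEGs had P below 0.05 and an absolute Log2FC above 0.32, the thresholds of the study. Normalized CPM are counts per TMM-scaled library total. Genes named from each pathway list were those past both thresholds with the smallest P, at most 4 in each direction, and genes named beside them for their role were chosen after their values were seen. The 2 genes most like each member were taken by Pearson's r over 6 libraries. The alternatives were DESeq2 1.42.0, its size factors, library totals, 2 other filters on low counts, offsets for GC content or transcript length, and each library left out in turn. The fit was tested on simulated counts. Promoter and coding sequences came from RefSeq (GRCm38.p6) and GENCODE vM21. Some genes of the lists are not reported here.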

Additional observations from a re-analysis of the deposited data

How the results depend on the processing

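After correction for GC content, DEGs numbered 1566 of 21844 genes (2675 without it), 5 of the pathway genes passed both thresholds (12 without it) and 0 of the 8 neurotrophin genes did (2 without it). DESeq2 called 4 of the 8, beside 3093 of the 31872 genes it tested, and 308 genes had an adjusted P below 0.05 by DESeq2. With each library left out in turn, DEGs ranged from 1430 (without library B) to 3508 (without library C), with 1620 without library A. Pathway genes past both thresholds ranged from 4 (without library A) to 24 (without control 1), with 5 without library B and 21 without library C, and the neurotrophin genes from 1 (without control 2, or without library B) to 4 (without control 1). Each of these fits left 2 mice in 1 group, and the cause of the shifts was not tested. Size factors, library totals, other filters and length offsets kept each of these counts within 1.5 times. The direction of 7 of the 8 genes held in 13 of 13 alternatives, and that of Ntrk3 in 8. Past both thresholds were Furin in 12 alternatives, Ngfr in 9, Sort1 in 5, Pcsk1 in 2 and Bdnf in 1. No paired analysis was possible because the groups share 1 mouse number and the AP1AR-DT_OE columns, numbered 1 to 3 while the mice are 3 to 5, could not be tied to single mice.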
